A study of Caenorhabditis elegans with 6 samples.

Results

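Antimicrobial effectors of Caenorhabditis elegans were described in active third-stage larvae (L3) and in larvae in L3 lethargus, the quiet phase of the molt. The set was chosen by gene symbol: nlp-24 to nlp-34, and every numbered gene of the cnc, abf, lys, ilys, spp, fip and fipr families that had a probe set assigned to it alone. This gave 70 genes on 78 probe sets, of 17118 genes on the array, and each gene was represented by its brightest probe set. By name, 18 are nlp and cnc peptide genes, 28 are lys and spp genes, 13 are fip and fipr genes and 11 are abf and ilys genes. The RefSeq table of assembly WBcel235 holds 110 coding genes under these names, and the 40 without a probe set of their own were not analysed here.

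Worms have no antibody-bearing cells or circulating phagocytes, and meet microbes mainly at the skin and in the gut. The epidermis makes small glycine- and tyrosine-rich peptides of the nlp and cnc (caenacin) families, whose best known member, nlp-29, is induced by fungal infection and by wounding through a p38 kinase cascade and the factor STA-2. The pharynx and intestine make lysozymes (lys and the invertebrate-type ilys genes), which cut bacterial cell walls, saposin-like spp proteins, some of which open pores in bacterial membranes, and abf peptides, which resemble defensins. The fip and fipr genes are named for induction by fungus and for likeness to such genes. Epidermal peptides, NLP-29 among them, have also been tied to sleep in this animal. The split into epidermal (nlp, cnc) and gut (lys, spp) genes used below is a split by name from this general knowledge and was not measured, since each array holds RNA of whole animals.

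All animals were hermaphrodite N2, variety Bristol, the wild type, without transgene or mutation. They were fed DA837, a derivative of the laboratory food bacterium OP50, at 20 °C and had been synchronised by arrest after hatching without food. L3 larvae were taken 32 hours after feeding for their active behaviour, and lethargus larvae 37 hours after feeding because they neither moved nor fed. Each of the 3 samples of a stage was a pool of 200 animals, and p-values reflect only how pools of a stage differ. By the labels, more samples of each stage were collected than the 3 with an array here. The labels do not say whether pools came from separate cultures. Age, molt and behaviour differ together and cannot be told apart. In pooled whole animals, fewer cells of a type and less RNA per cell cannot be told apart either.

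Expression was measured on the Affymetrix C. elegans Genome Array, and the deposited values are log2 levels made with RMA. A change is the log2 level in lethargus minus that in L3, tested with limma over all 22548 probe sets, and a gene was called at an adjusted p of 0.05 or less. Levels were compared only within a probe set. Of the 70 genes, 31 were represented by a probe set marked as able to match related transcripts. These were 10 nlp or cnc, 9 lys or spp, 9 fip or fipr and 3 abf or ilys genes. The 27 control probe sets for Bacillus subtilis transcripts ranged from 2.42 to 5.73 and served as a guide to background. Of the 70 genes, 24 lay at or below 5.73 on every array, 2 had a group mean within that range, and 44 were above it in both stages.

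L3 replicate 3 was unlike its fellow L3 replicates. On the first principal component of all probe sets, with 50.1% of the variance, it lay at 0.82, while L3 replicates 1 and 2 lay at -47.7 and -40.9 and the lethargus arrays at 19.5 to 39.1. The median level of 34 sperm genes was 7.49 there, 5.20 and 5.37 on L3 replicates 1 and 2, and 5.52 to 6.47 in lethargus. Its part in the results below was not tested, and results are therefore also given without that array where it alters a call or, among the 24 largest changes, markedly alters the size. On the first component it lay nearer to the lethargus arrays than to the other L3 arrays, so leaving it out tends to widen the stage difference. Calls made without it are therefore not independent support. Over all genes they were 455 higher and 444 lower, against 134 and 43 on 6 arrays. Lethargus replicate 3 differed from its nearest array by up to 3.84 on a probe set, against 4.13 for L3 replicate 3 and 1.70 to 2.48 for the rest, and lay at 26.1 on the second component. Without lethargus replicate 3, nlp-25 was again the 1 antimicrobial gene called.

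Most of the antimicrobial genes were not called. In lethargus 1 of the 70 genes rose, nlp-25, and 0 fell, against 0.783% of all genes called higher and 0.251% called lower. Without L3 replicate 3, 5 rose (nlp-25, nlp-26, nlp-27, cnc-8 and spp-24) and 4 fell (abf-2, cnc-3, spp-7 and spp-13), against 2.66% and 2.59% of all genes. Every lethargus array lay above every L3 array for 14 genes (20% of the 70, against 8.18% of all genes) and below for 8 (11.4%, against 6.44%). Among the 44 genes above the control range in both stages, 7 lay above and 8 below in this way. Of all 10463 genes above that range in both stages, 983 lay above and 829 below. At an unadjusted p under 0.05, 12 of the 70 were higher and 5 lower, where 5.74% of all genes were higher and 5.06% lower. None of these shares was tested against the background. Changes were positive for 39 genes and negative for 31, with a median of 0.02, the same as over all 17118 genes. With the arrays set to a common median the split was 35 to 35.

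**Figure D1:**
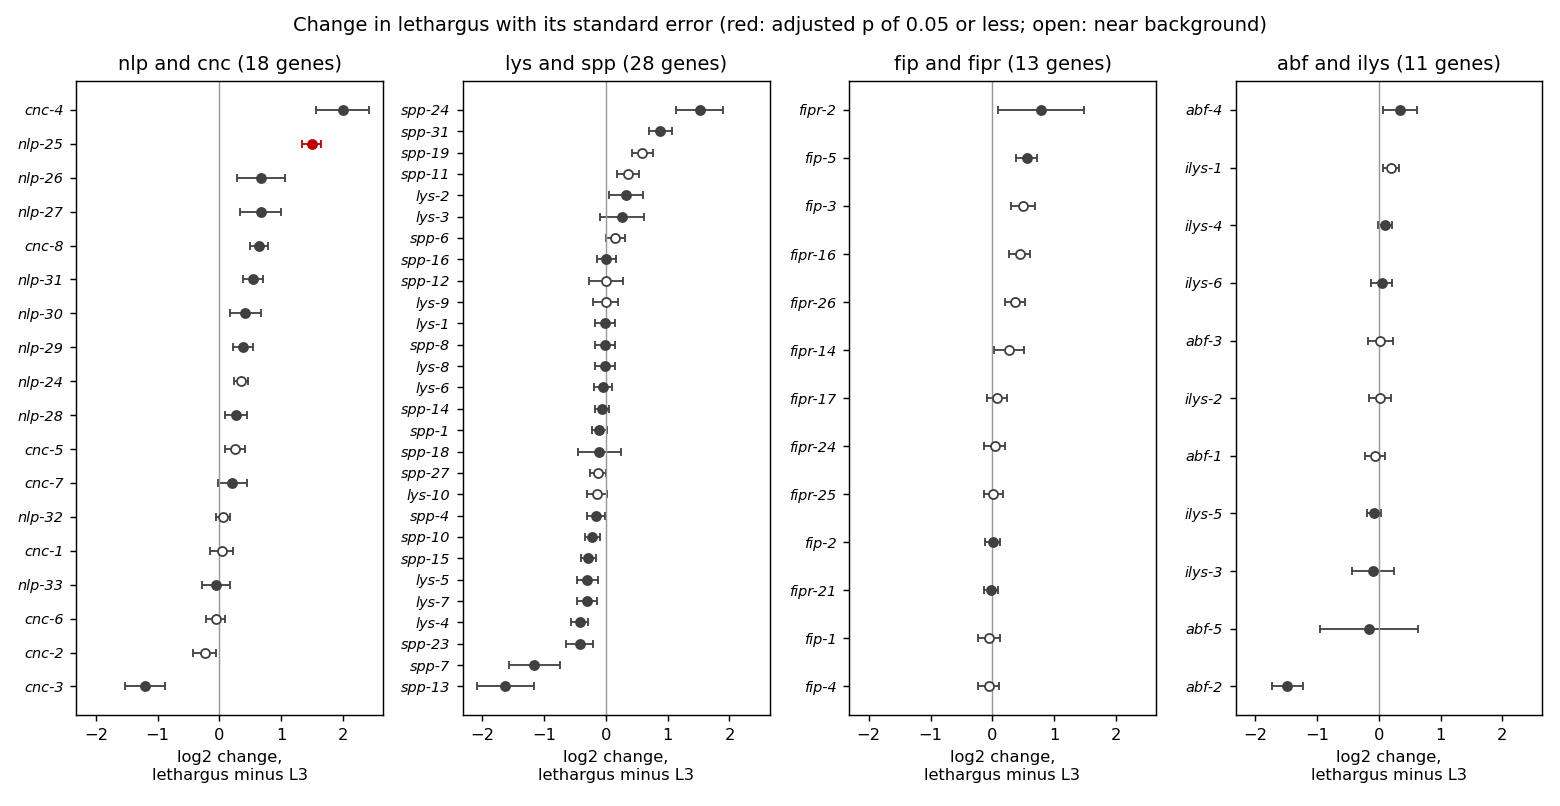
Log2 change in lethargus against L3 (x axis) for each of the 70 genes, in 4 panels by gene family. Points are the limma estimates from 3 arrays a stage, bars are standard errors, red marks an adjusted p of 0.05 or less, and open points mark genes whose level in a stage was within the background range. nlp-25 is the sole red point, and changes beyond 1 in size are seen for cnc-4, spp-24, abf-2, cnc-3, spp-7 and spp-13.

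The nlp and cnc peptide genes had positive changes in 14 of 18 cases, against 9312 of all 17118 genes. Their median was 0.31 (0.28 to 0.29 with a second quantile normalization or a common median), against 0.02 over all genes. The 14 include nlp-27, nlp-28, nlp-29, nlp-30 and nlp-31, whose probe sets are marked as able to match related transcripts. Of the 18 genes 1 rose, 0 fell and 17 were not called, against 0.783% of all genes called higher and 0.251% called lower. At an unadjusted p under 0.05, 6 of the 18 were higher and 1 lower, against 5.74% and 5.06% of all genes. Among the 12 that lay above the control range in both stages the median was 0.48. The genes nlp-24, nlp-32, cnc-1, cnc-5 and cnc-6 lay within the control range on every array, so a change in them could not be measured well. Beside nlp-24, given further on, these had changes of 0.06 for nlp-32, 0.04 for cnc-1, 0.26 for cnc-5 and -0.06 for cnc-6.

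nlp-25 had log2 levels of 10.70, 10.38 and 10.41 in L3 and 12.19, 11.98 and 11.80 in lethargus. The stages were far apart, with a gap between the highest L3 and the lowest lethargus array much wider than the spread within either stage. The mean went from 10.50 ± 0.17 (SD, n = 3) to 11.99 ± 0.20 (n = 3), a rise of 1.50 (SE 0.15), or 2.82-fold, with an adjusted p of 0.00679. Its probe set is not marked as able to match related transcripts. nlp-25 encodes a secreted peptide precursor of the neuropeptide-like class, and it is separated by a single coding gene from nlp-26 on chromosome V.

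nlp-26 had levels of 9.51, 9.32 and 10.87 in L3 and 10.71, 10.71 and 10.32 in lethargus. L3 replicate 3 was higher than every lethargus array, while the other L3 arrays were lower than all of them. On 6 arrays the change was 0.68 (SE 0.39, adjusted p 0.678). Without L3 replicate 3 it was 1.17 (adjusted p 0.0117).

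The 6 neighbours nlp-34, nlp-31, nlp-30, nlp-29, nlp-28 and nlp-27 follow each other on chromosome V, and 5 of them were measured. All 5 had positive changes, from 0.27 to 0.67, and none was called on 6 arrays (lowest adjusted p 0.245). Their probe sets are all of the kind marked as able to match related transcripts, so the 5 values are not shown to be separate.

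nlp-29, the standard reporter gene of epidermal defence, had levels of 12.34, 12.45 and 12.74 in L3 and 13.09, 12.86 and 12.72 in lethargus. The stages overlapped narrowly, through L3 replicate 3 and lethargus replicate 3. The change was 0.38 (SE 0.16), with an adjusted p of 0.460. nlp-31, whose peptide has antifungal activity in vitro, had 11.54, 11.79 and 11.77 in L3 and 12.53, 12.16 and 12.05 in lethargus. All lethargus arrays of nlp-31 were above all L3 arrays, and its change of 0.55 (SE 0.16) had an adjusted p of 0.245.

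nlp-27 had levels of 10.42, 10.85 and 11.81 in L3 and 11.91, 11.70 and 11.48 in lethargus. L3 replicate 3 lay among the lethargus arrays, and the other L3 arrays lay below them. The change was 0.67 (SE 0.33, adjusted p 0.594) on 6 arrays and 1.06 (adjusted p 0.0248) without L3 replicate 3. nlp-30 went the other way on that array: its L3 levels were 11.60, 11.65 and 10.86, against 12.12, 11.62 and 11.63 in lethargus, and its change of 0.42 (adjusted p 0.70) was 0.16 without L3 replicate 3. nlp-28 had a change of 0.27 (adjusted p 0.730). nlp-33, outside this run of neighbours, had -0.05 (adjusted p 0.986).

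nlp-24, within the control range throughout, had 4.61, 4.68 and 4.70 in L3 and 4.92, 5.11 and 5.01 in lethargus. Its lethargus arrays were all above its L3 arrays, but the change of 0.35 (adjusted p 0.316) lies where background weighs most.

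None of the 8 caenacin genes was called on 6 arrays, and 5 had positive and 3 negative changes. cnc-4 had the largest change of the 70 genes on 6 arrays, with levels of 8.17, 7.33 and 6.86 in L3 and 10.27, 8.99 and 9.08 in lethargus. The lethargus arrays were all above the L3 arrays, but each stage also spread widely, with SDs of 0.66 and 0.72 (n = 3 each). The change was 1.99 (SE 0.43), with an adjusted p of 0.103, and cnc-4 was not called with or without L3 replicate 3 (adjusted p 0.0661 without it).

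cnc-3, the next gene to cnc-4 on chromosome V, differed in the opposite direction. It had 12.53, 12.35 and 11.71 in L3 and 10.83, 10.53 and 11.62 in lethargus. All lethargus arrays were below all L3 arrays, though L3 replicate 3 and lethargus replicate 3 nearly met. The change was -1.21 (SE 0.32, adjusted p 0.18), and without L3 replicate 3 the gene fell by 1.45 (adjusted p 0.0363). The probe sets of cnc-3 and cnc-2 are marked as able to match related transcripts, so neither value is shown to be that gene's alone. cnc-2, which lies beside cnc-3 and is known as a caenacin gene controlled by the TGF-beta ligand DBL-1, had 5.63, 6.12 and 5.55 in L3 and 5.63, 5.61 and 5.34 in lethargus. These overlapped, with a lethargus mean within the control range and a change of -0.24 (adjusted p 0.814). Over the 5 measured genes of this run of cnc genes, changes ran from -1.21 to 1.99.

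cnc-8 had 10.62, 10.69 and 10.99 in L3 and 11.49, 11.49 and 11.25 in lethargus, with no overlap. Its change was 0.64 (SE 0.15, adjusted p 0.125), and without L3 replicate 3 it rose by 0.75 (adjusted p 0.0352). On chromosome X it follows fip-5 and fipr-21, described further on. cnc-7 had 0.21 on its brighter and 0.23 on its dimmer probe set, neither called.

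**Figure D2:**
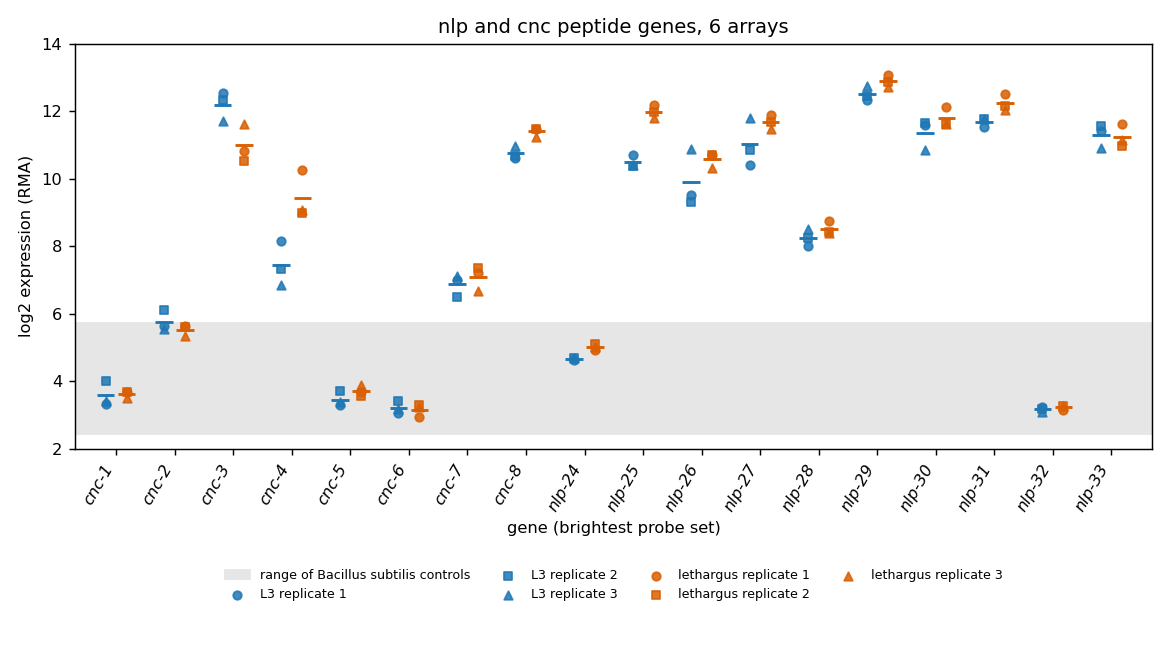
Log2 expression (y axis) of the 18 nlp and cnc genes on each of the 6 arrays, blue for L3 and orange for lethargus, with a marker shape per replicate and a short line for the mean of 3 arrays. The grey band is the range of the background controls, 2.42 to 5.73. For nlp-26 and nlp-27 the blue triangle, L3 replicate 3, lies level with the orange points.

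Epidermal markers were followed beside these genes. Of 20 markers 19 were measured, none within the control range on every array, and their median level was 10.25 to 10.40 on the L3 arrays and 9.93 to 10.70 on the lethargus arrays. Their median change was -0.11, and 1 of the 19 was called: rol-6, a cuticle collagen gene, fell by 1.05 (adjusted p 0.0488). Of all genes, 0.783% were called higher and 0.251% lower. At an unadjusted p under 0.05, 3 of the 19 were higher and 6 lower, against 5.74% and 5.06% of all genes. Without L3 replicate 3 the median change was -0.47, and 1 marker rose and 3 fell, against 2.66% and 2.59% of all genes. The part of epidermal RNA content in the changes of nlp and cnc genes was not tested.

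The lysozyme and saposin-like genes had changes centred near 0. Of 28, 0 rose and 0 fell on 6 arrays, against 0.783% of all genes called higher and 0.251% lower. Changes were positive for 9 and negative for 19, and their median was -0.06 (7 positive and 21 negative with a common median). Over all 17118 genes 9312 changes were positive and 7806 negative. At an unadjusted p under 0.05, 3 were higher and 3 lower, against 5.74% and 5.06% of all genes. Leaving out L3 replicate 3, 1 rose and 2 fell, against 2.66% and 2.59% of all genes. Of 18 intestinal markers 17 were measured, none within the control range on every array, with median levels of 11.27 to 11.63 in L3 and 11.43 to 11.47 in lethargus. Their median change was 0.05, and 0 of them were called on 6 arrays. Without L3 replicate 3, 0 of these markers rose and 2 fell.

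The lys genes, which encode lysozymes of a type shared with amoebae, differed little between stages. All 10 were measured, and their changes ran from -0.42 to 0.33. lys-7, a known target of the insulin-pathway factor DAF-16, had 10.63, 10.24 and 10.15 in L3 and 10.13, 10.05 and 9.92 in lethargus. The stages abutted without overlap, and the change was -0.30 (SE 0.16, adjusted p 0.626). lys-4 likewise had lower levels on every lethargus array, with 12.72, 12.52 and 12.39 in L3 and 12.15, 12.18 and 12.03 in lethargus. Its change was -0.42 (SE 0.13, adjusted p 0.275). The probe sets of lys-4, lys-7 and lys-2 are marked as able to match related transcripts.

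lys-1, which is induced by the bacterium Serratia marcescens, had 11.48, 11.33 and 11.43 in L3 and 11.70, 11.36 and 11.14 in lethargus. The L3 values lay inside the spread of the lethargus values, with a change of -0.01 (SE 0.16, adjusted p 0.996). lys-8 had 11.01, 10.97 and 10.85 in L3 and 10.96, 10.64 and 11.20 in lethargus, and also a change of -0.01 (SE 0.16, adjusted p 0.995). lys-2, a neighbour of lys-1, had 11.79, 11.52 and 12.04 in L3 and 12.54, 12.26 and 11.53 in lethargus, which overlapped, with a change of 0.33 (SE 0.27, adjusted p 0.837). Of the remaining genes, lys-3 had 0.26, lys-5 -0.30 and lys-6 -0.04, and lys-9 and lys-10 lay within the control range on every array.

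Among the 18 spp genes the spread of changes was wider, from -1.63 to 1.52, and spp-24 and spp-13 were at its ends. spp-24 had 6.85, 7.20 and 8.47 in L3 and 8.99, 9.18 and 8.89 in lethargus. Every lethargus array was above every L3 array, and L3 replicate 3 lay nearer to lethargus than to the other L3 arrays. The change of 1.52 (SE 0.38) had an adjusted p of 0.160, and without L3 replicate 3 the gene rose by 2.00 (adjusted p 0.00130).

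spp-13 had 11.81, 11.03 and 10.37 in L3 and 9.50, 8.64 and 10.18 in lethargus. The stages did not overlap, although L3 replicate 3 and lethargus replicate 3 were close. On 6 arrays the change was -1.63 (SE 0.46, adjusted p 0.218), and without L3 replicate 3 spp-13 fell by 1.98 (adjusted p 0.0424). spp-7 had 9.39, 9.17 and 7.98 in L3 and 7.95, 7.10 and 8.03 in lethargus. Here L3 replicate 3 lay among the lethargus arrays, and the change was -1.15 (SE 0.41, adjusted p 0.344), or a fall of 1.59 without that array (adjusted p 0.0203). The probe set of spp-7 is marked as able to match related transcripts.

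spp-31 had 10.33, 10.65 and 10.00 in L3 and 11.28, 11.03 and 11.32 in lethargus, again with no overlap. Its change of 0.88 (SE 0.19) had an adjusted p of 0.101, and 0.0677 without L3 replicate 3, so it was not called in either case. spp-23 had 9.55, 9.30 and 9.92 in L3 and 8.93, 9.56 and 8.99 in lethargus, which overlapped (change -0.43, adjusted p 0.633, or -0.26 without L3 replicate 3). Both spp-19 and spp-11 lay within the control range on every array. spp-19 had 4.03, 3.93 and 4.16 in L3 and 4.61, 4.92 and 4.36 in lethargus (change 0.59, adjusted p 0.216). spp-11 had 2.76, 2.86 and 2.82 in L3 and 2.99, 2.96 and 3.54 in lethargus (change 0.35, adjusted p 0.593). In both, lethargus was above L3 on every array.

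No difference was called for spp-1 and spp-10, with or without L3 replicate 3. spp-1, whose protein forms pores in bacterial membranes, had 11.40, 11.63 and 11.51 in L3 and 11.36, 11.43 and 11.45 in lethargus. Its change was -0.10 (SE 0.12, adjusted p 0.907), and a dimmer probe set, within the control range, had -0.09. spp-10 had 11.95, 12.03 and 11.90 in L3 and 11.85, 11.68 and 11.70 in lethargus. That is a change of -0.22 (adjusted p 0.649) without overlap, whereas its other probe sets had -0.04 and 0.01. spp-5, a further pore former, has no probe set of its own. The other 9 spp genes had changes from -0.28 for spp-15, lower on every lethargus array, to 0.15 for spp-6.

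**Figure D3:**
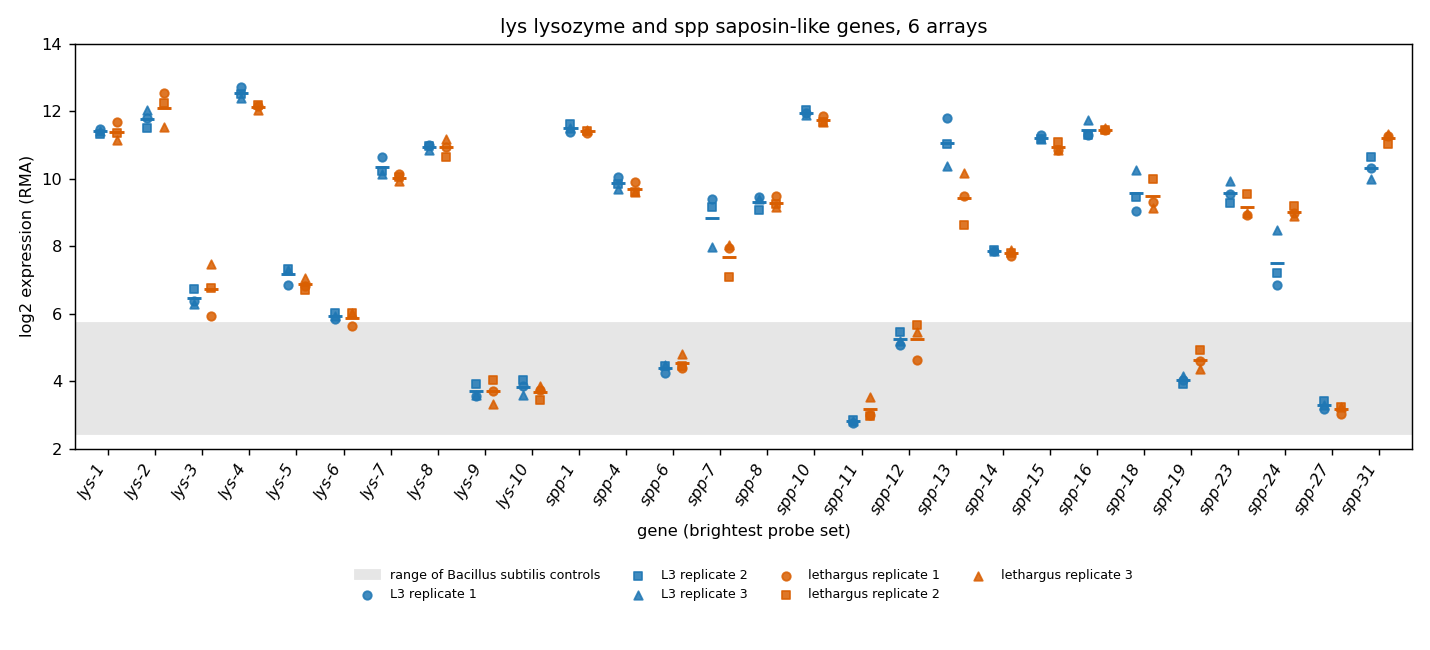
Log2 expression (y axis) of the 28 lys and spp genes on each of the 6 arrays, drawn as in the plot of the nlp and cnc genes. The lys genes keep like levels in both stages, while spp-7 and spp-13 are lower and spp-24 and spp-31 higher in the mean of the lethargus arrays.

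The abf peptides and the invertebrate-type lysozymes gave 0 calls among 11 genes on 6 arrays, against 0.783% of all genes called higher and 0.251% lower. At an unadjusted p under 0.05, 0 were higher and 1 gene was lower, where all genes had 5.74% and 5.06%. That gene was abf-2, whose peptide kills bacteria in vitro and which is known to be made in the pharynx. Its levels were 7.79, 7.88 and 6.98 in L3 and 6.24, 6.14 and 5.83 in lethargus, with no overlap. The mean went from 7.55 ± 0.49 (SD, n = 3) to 6.07 ± 0.21 (n = 3) in lethargus. The change was -1.48 (SE 0.25), with an adjusted p of 0.0513, just short of the threshold. Without L3 replicate 3 it fell by 1.77 (adjusted p 0.00188). The probe set of abf-2 is marked as able to match related transcripts.

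All 16 pharyngeal markers were measured beside it, and 15 had positive changes, against 9312 of all 17118 genes, with a median of 0.35. Their median level was 7.94 to 8.19 in L3 and 8.26 to 8.60 in lethargus. The sole called marker was hlh-6, a regulator of the pharyngeal glands, which fell by 1.27 (adjusted p 0.0166) to a lethargus mean within the control range. Of all genes, 0.783% were called higher and 0.251% lower. The median change was 0.27 without L3 replicate 3, and 1 marker then rose and 1 fell, against 2.66% and 2.59% of all genes. The part of pharyngeal RNA content in the change of abf-2 was not tested.

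abf-1, the gene next to abf-2, lay within the control range, at 4.06, 4.33 and 4.50 in L3 and 4.10, 4.42 and 4.18 in lethargus. The stages overlapped fully (change -0.07, adjusted p 0.970). abf-3, also within that range, had 0.02, and abf-4 had 0.35 (adjusted p 0.830), or 0.60 without L3 replicate 3. ilys-3, an invertebrate-type lysozyme gene active in pharynx and gut and used in digesting bacteria, had 6.10, 6.07 and 6.71 in L3 and 5.65, 6.92 and 6.02 in lethargus. These were mixed as well, with a change of -0.09 (SE 0.34, adjusted p 0.983). The changes of the 6 ilys genes ran from -0.09 to 0.20, the latter for ilys-1 near background, and all 3 probe sets of ilys-5 had values between -0.11 and -0.08.

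The fip and fipr genes gave 0 calls among 13 on 6 arrays, against 0.783% of all genes called higher and 0.251% lower. Without L3 replicate 3 they also gave 0 calls, against 2.66% and 2.59% of all genes. At an unadjusted p under 0.05, 3 were higher and 0 lower, against 5.74% and 5.06% of all genes. Of the 13, 8 lay within the control range on every array, fip-1 among them. fip-1 had 2.83, 2.63 and 2.96 in L3 and 2.54, 2.63 and 3.09 in lethargus, which is no more than background. fip-5 had 9.60, 9.73 and 10.08 in L3 and 10.50, 10.44 and 10.14 in lethargus, with no overlap, and a change of 0.56 (SE 0.17, adjusted p 0.267).

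fipr-21, between fip-5 and cnc-8 on chromosome X, had a change of -0.02 (SE 0.12, adjusted p 0.987). fip-3 had 5.44, 5.83 and 5.76 in L3 and 6.42, 5.83 and 6.27 in lethargus, a change of 0.50 (adjusted p 0.404) with an L3 mean within the control range. Its stages barely cleared each other. The neighbour fipr-16, within the control range, had 3.91, 4.48 and 4.27 in L3 and 4.57, 4.60 and 4.82 in lethargus (change 0.44, adjusted p 0.415). fipr-26, also within it, had 3.98, 4.10 and 4.11 in L3 and 4.71, 4.45 and 4.13 in lethargus (change 0.37, adjusted p 0.521). The lethargus arrays of both were above their L3 arrays, at levels where background weighs most. The probe sets of fip-3 and fipr-16 are marked as able to match related transcripts. Their values, each counted above as higher at an unadjusted p under 0.05, are therefore not shown to be separate. The probe sets of fip-5, fipr-21 and fipr-26 are marked in the same way. The remaining fip and fipr genes had changes from -0.06 for fip-4 to 0.28 for fipr-14. fipr-2 varied more between pools than between stages, with 6.81, 6.87 and 9.0 in L3 and 9.01, 8.88 and 7.17 in lethargus. L3 replicate 3 was as high as lethargus replicates 1 and 2, and lethargus replicate 3 was nearly as low as the other L3 arrays (change 0.80, SE 0.70, adjusted p 0.853). The change was 1.51 (adjusted p 0.177) without L3 replicate 3.

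**Figure D4:**
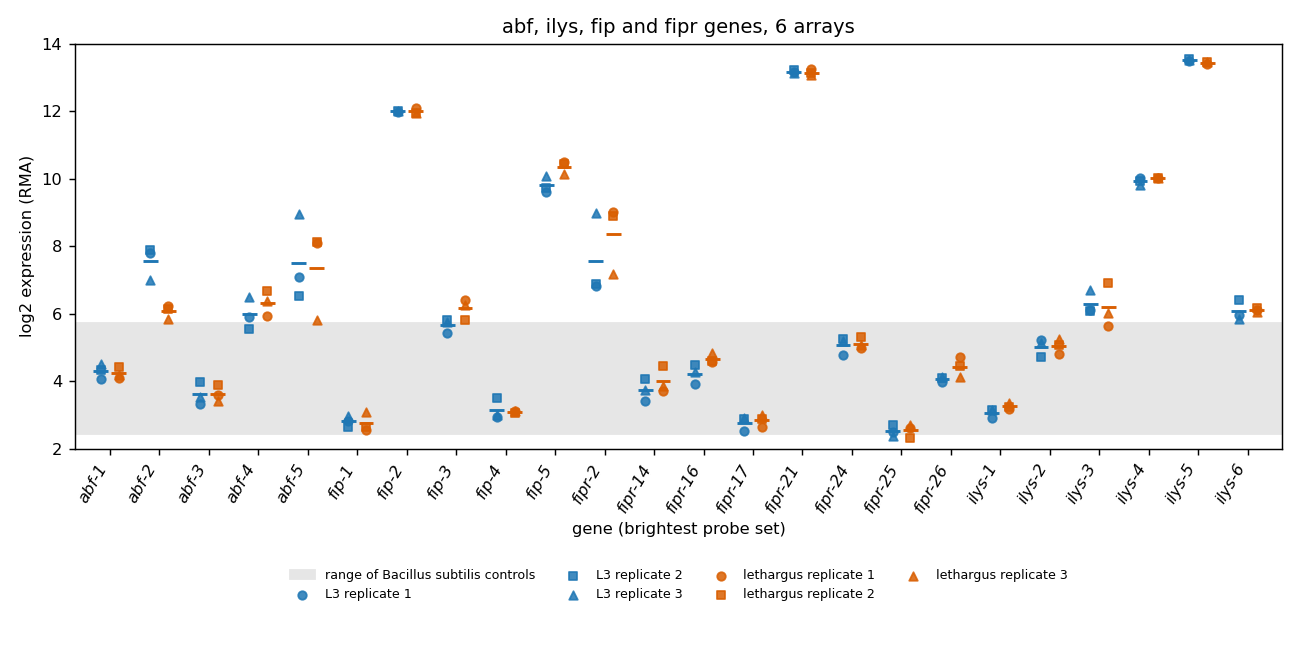
Log2 expression (y axis) of the 24 abf, ilys, fip and fipr genes on each of the 6 arrays, drawn as in the plot of the nlp and cnc genes. abf-2 shows lower orange points with no overlap, while the points of abf-5 and fipr-2 spread widely within each stage.

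**Figure D5:**
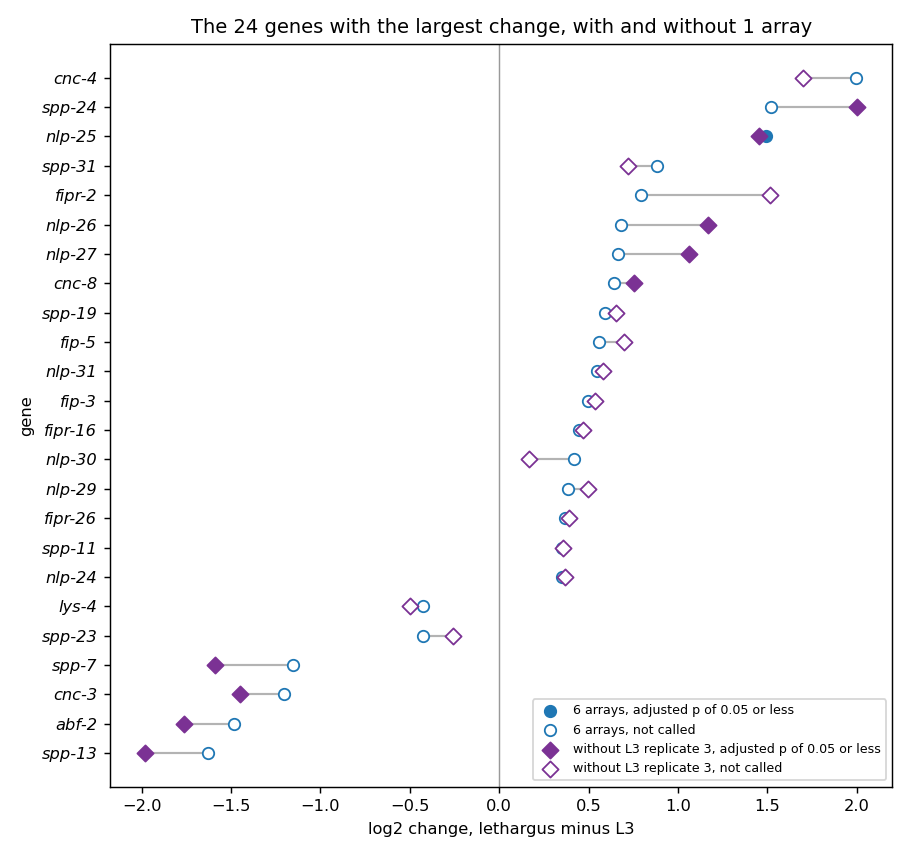
Log2 change in lethargus against L3 (x axis) for the 24 genes with the largest change, on 6 arrays (circles) and without L3 replicate 3 (diamonds), filled where the adjusted p was 0.05 or less. nlp-25 is filled in both, and 8 further genes are filled only among the diamonds.

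Genes known to control these effectors were also followed, as 4 lists of the p38 kinase pathway, epidermal immune signalling, the TGF-beta pathway and gut and insulin regulators. Of 67 genes asked for, 63 were measured, and on 6 arrays 0 rose and 0 fell, against 0.783% and 0.251% of all genes. At an unadjusted p under 0.05, 9 were higher and 4 lower, against 5.74% and 5.06% of all genes. Without L3 replicate 3, 1 of the 63 rose and 0 fell, against 2.66% and 2.59% of all genes. The gene that rose was sma-10 of the TGF-beta pathway (0.73, adjusted p 0.0472). The median change was 0.06.

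snf-12, which encodes a transporter-like partner of STA-2 needed for nlp-29 induction, had 8.37, 8.25 and 8.49 in L3 and 9.30, 8.94 and 8.96 in lethargus. The stages were clearly apart, and the change was 0.69 (SE 0.15), with an adjusted p of 0.101, or 0.0522 without L3 replicate 3. sta-2 itself had 7.42, 7.34 and 7.67 in L3 and 7.84, 7.62 and 7.88 in lethargus. That is a narrow overlap and a change of 0.31 (adjusted p 0.551). elt-3, an epidermal GATA factor that acts on nlp-29, had a change of 0.41 (adjusted p 0.646).

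Of the p38 pathway list 15 genes were measured and none was called on 6 arrays, with changes from -0.16 to 0.63 and a median of 0.04. The largest was that of nipi-3, a pseudokinase gene needed for nlp-29 induction (0.63, SE 0.26, adjusted p 0.459). tir-1, its adaptor at the top, had a change of 0.07 (SE 0.11, adjusted p 0.945), and sek-1, the kinase kinase, had -0.11 (SE 0.23, adjusted p 0.963). A probe set of sek-1 not marked as able to match related transcripts had 0.08 (adjusted p 0.958). The p38 kinase gene pmk-1 had 8.94, 8.83 and 8.93 in L3 and 9.11, 9.19 and 9.02 in lethargus, which did not overlap, with a change of 0.21 (SE 0.12, adjusted p 0.674). atf-7, the factor downstream of it, had 0.03 (adjusted p 0.990). dbl-1, the TGF-beta ligand upstream of cnc-2, had 0.02 (adjusted p 0.994), and elt-2, the main GATA factor of the intestine, had -0.27 (SE 0.15, adjusted p 0.690).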

How the data were processed

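The deposited table holds log2 expression values per probe set, which the authors made with RMA according to the submitters' processing notes. No version is given in the sources used here. Per the labels' protocols, RNA was amplified before labelling. Levels of different probe sets are not comparable. Tests ran over 22548 probe sets, without the 77 controls. GEO's platform annotation named 1 gene for 20766 probe sets, several for 887 and none for 895. The values were used without further normalization. Lethargus and L3 were compared with limma 3.58.1 in R 4.3.3 (lmFit, eBayes, two-sided), adjusted by Benjamini-Hochberg over 22548 probe sets. An exact permutation test of 3 against 3 arrays cannot go below 0.1. R/maanova, named in the design text, was not run here. The fit was tested on simulated data with independent noise and no outlying array. That test therefore cannot speak to the effect of L3 replicate 3. The number of arrays limits the precision.

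The genes and lists were chosen with earlier results of these data known. Array values are given for called genes, the 24 largest changes, and 17 measured genes of 19 fixed by name. Other members are given by their change alone. Among regulators, called genes and tir-1, sek-1, pmk-1, atf-7, sta-2, snf-12, elt-2, elt-3 and dbl-1 are named by rule. rol-6, hlh-6, sma-10, nipi-3 and the array values of abf-5 fall outside these rules and were picked once their values were known. Alternatives were other normalizations, filters, variance models, probe set choices, arrays left out and replicate number as a block. Replicate numbers are not shown to pair the samples.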

Additional observations from a re-analysis of the deposited data

How the results depend on the processing

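nlp-25 kept its call under all 15 alternatives, with a change of 1.40 to 1.59 and adjusted p-values from 0.00138 to 0.0479. Leaving out 1 array in turn, 1 to 5 of the 70 genes were called higher and 0 to 4 lower, where every call beside nlp-25 came from the fit without L3 replicate 3. The ranges were 1 to 4 higher and 0 to 1 lower for nlp and cnc genes. For lys and spp genes they were 0 to 1 higher and 0 to 2 lower, and for regulators 0 to 1. The upper ends came from the fit without L3 replicate 3, where calls were also more frequent over all genes. That fit called 2.66% of all genes higher and 2.59% lower, against 0.783% and 0.251% with every array kept. Shares of all genes under the other alternatives are not given here. Array weights called 2 genes higher (nlp-25 and cnc-8, both nlp or cnc) and 1 lower (abf-2). A variance trend with robust fitting, and a fit without probe sets below the highest control, each called 1 lower, abf-2. The fit with replicate number as a block called 2 higher, nlp-25 and cnc-4 (both nlp or cnc). Deviations from the stage means of equally numbered arrays correlated at 0.26, -0.24 and -0.29, so the numbers are not shown to pair the arrays. Among the values of single named genes under alternatives, 576 kept sign and call, 13 became called, 24 uncalled values changed sign, 0 lost a call and 0 reversed. The causes were not tested. For the 24 genes within the control range on every array, low signal limits what can be measured.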

Other observations

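A further 12 probe sets name a gene of these families together with another gene, and so were not used above. The probe set shared by cnc-11 and R09B5.11, at the end of the run of cnc genes, had 7.70, 7.74 and 6.79 in L3 and 6.08, 6.46 and 6.89 in lethargus, a change of -0.94 (SE 0.31, adjusted p 0.30) with L3 replicate 3 among the lethargus arrays. The probe set shared by fipr-16 and fip-3 had 5.73, 6.09 and 6.48 in L3 and 6.91, 6.80 and 6.74 in lethargus, without overlap and with a change of 0.71 (SE 0.20, adjusted p 0.203). Bright probe sets shared by spp-2 and spp-3, and by spp-5 and T08A9.13, had changes of 0.00 and -0.06 (adjusted p 0.998 and 0.966). None of the 12 was called.

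abf-5, chosen after its values were seen, had 7.08, 6.52 and 8.95 in L3 and 8.11, 8.14 and 5.82 in lethargus. Its SDs of 1.27 and 1.33 (n = 3 each) far exceed its change of -0.16 (SE 0.79, adjusted p 0.988). As for fipr-2, L3 replicate 3 was the highest of its stage and lethargus replicate 3 the lowest of its own. Among regulators, and likewise chosen after their values were seen, osm-8, a gene whose loss is known to raise nlp-29, had 10.93, 10.14 and 9.28 in L3 and 8.12, 6.92 and 9.38 in lethargus, a change of -1.98 (SE 0.64, adjusted p 0.293). zip-10, a bZIP factor gene, had a change of 1.17 (SE 0.27, adjusted p 0.125), with all lethargus arrays above all L3 arrays.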
